A study of Homo sapiens with 6 samples.

Results

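Translation initiation and elongation factors were followed as the 67 genes of 20532 in the read count table whose symbol starts with EIF1 to EIF6 or with EEF1 or EEF2, the eIF2 kinases (EIF2AK) left out. They were measured in MDA-MB-231 M3, bone-metastatic human breast cancer cells of the triple-negative MDA-MB-231 lineage. There are 3 control libraries, described in the labels as untreated or control cells, and 3 libraries from cells in which PRMT1 was knocked down with a small interfering RNA (siPRMT1). PRMT1 places most asymmetric dimethyl marks on protein arginines, and RNA-binding proteins with glycine-arginine repeats are among its substrates. The sources used here do not say whether the controls were transfected or how long the knockdown lasted. All samples come from 1 cell line.

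Translation of an mRNA starts when eIF2, carrying GTP and the initiator tRNA, joins the small ribosomal subunit together with eIF1, eIF1A, eIF3 and eIF5. The eIF4 factors bind the cap of the mRNA and unwind it, the complex scans to a start codon, and eIF5B then brings in the large subunit. During elongation eEF1A delivers aminoacyl-tRNA, the eEF1B subunits recharge it with GTP, eEF2 moves the ribosome by a codon, and eIF5A helps at stalling sites. Cells restrain the cap-binding step through the eIF4E-binding proteins, and eIF2 through phosphorylation, which blocks its exchange factor eIF2B. Some of the 67 genes do other work: EIF4A3 encodes a core protein of the exon junction complex, EEF1E1 a scaffold of the aminoacyl-tRNA synthetase complex, and several encode enzymes that modify elongation factors.

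Library totals lay between 16968563 and 20545995 counts. PRMT1 had 144, 149 and 145 CPM in the control libraries and 12.0, 11.9 and 11.9 CPM in the siPRMT1 libraries (CPM, read counts after TMM scaling to a common library size, the scale of every level below), and no siPRMT1 library reached a control. That was a 12.3-fold lower level (log2 fold change -3.62, SE 0.0451, adjusted p = 9.06e-297 by edgeR). The vimentin gene VIM stood at 1817 CPM in the control libraries. VIM is 1 of 10 marker genes of MDA-MB-231 and breast cells. Their summed level was 4263 to 4328 CPM in the control libraries and 6139 to 6203 CPM in the siPRMT1 libraries. Of the 8 tested, 6 rose and 1 fell. The oestrogen and progesterone receptor genes ESR1 and PGR, which the parent line is known to lack, had 5 and 1 counts over all 6 libraries. Of 10 marker genes of leukocytes, endothelium and fibroblasts 7 stayed under 1 CPM in every library. Their summed level was 223 to 228 CPM in the control libraries and 391 to 396 CPM in the siPRMT1 libraries, most of it CD68, a lysosomal gene that is not limited to macrophages. Mitochondrially encoded genes took 5.0% to 5.09% of the control counts and 8.64% to 8.74% of the siPRMT1 counts, and the part of this shift in the values below was not tested.

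The translation factor genes leaned upward, with differences between groups of factors at the threshold given next. Genes moved both ways among eIF2 and the other initiator tRNA carriers (3 higher, 2 lower), eIF3 (12 and 1) and the eIF4 factors (2 and 8). In eIF2B, and in eEF1 with eEF2, 5 genes each were higher and 0 lower. Of the 67 genes 64 had enough counts to be tested with edgeR's quasi-likelihood test. At a Benjamini-Hochberg adjusted p under 0.05, 60 of them changed, 40 higher and 20 lower in the siPRMT1 libraries. Over all 13710 tested genes 89.3% passed the same threshold (44.3% higher, 45.0% lower), so passing says little about a gene, and the size and direction of the change are what is described here. At least 2-fold changes were found for 19 of the 64 genes, against 36.3% of all tested genes. Of these, 12 were higher (15.3% of all genes) and 7 lower (21.0% of all genes). The median log2 fold change (siPRMT1 minus control) was 0.44 over the 64 genes and -0.0082 over all genes. With scaling by library size alone these medians were 0.12 and -0.33. A level here is thus relative to other genes under the scaling chosen, and not an amount per cell. In such bulk samples fewer cells of a kind and less RNA per cell cannot be told apart. The control and siPRMT1 values did not overlap for 59 of the 64 genes (89.1% of all tested genes). The samples are called biological replicates without mention of separate transfections, so each p-value reflects only how these samples spread, which may be technical variation.

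Together the 67 genes took 2.38% to 2.40% of all counts in the control libraries and 2.30% to 2.32% in the siPRMT1 libraries. EEF1A1 alone held 1.09% to 1.11% and 0.868% to 0.880%. Without it the share of the other genes was 1.29% to 1.30% in the control libraries and 1.43% to 1.44% in the siPRMT1 libraries. As shares of unscaled counts the sum was thus lower and the remainder higher after the knockdown, with no overlap. TMM factors were 1.12 in the control libraries and 0.895 to 0.897 in the siPRMT1 libraries, so the direction of the sum depends on the scaling. EEF1A1, lower as a share, had a log2 fold change of -0.0094 after TMM scaling. Not tested were EIF1AY and EIF4E1B, with no count in any library, and EIF2S3B, with 12 counts in all.

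In these libraries the fold change of a gene was related to the GC content and length of its transcript, among the translation factor genes as among all genes. Across the 64 genes the log2 fold change had a Pearson correlation of 0.66 with the GC content of the canonical transcript and of -0.57 with the logarithm of its length. Across all 13694 tested genes with a canonical transcript the values were 0.62 and -0.49, and genes of a library are not independent replicates. The 12 genes that rose at least 2-fold had transcripts with a median GC content of 57.2% and a median length of 1274.5 bases. For the 7 that fell at least 2-fold the medians were 37.3% and 5534 bases, and for all tested genes 48.6% and 3253 bases. Their 3′ untranslated regions had a median length of 145 and 2372 bases. A second fit removed both trends per library, and its log2 fold change is given below as the corrected value. In that fit 42 of the 64 genes were higher and 15 lower (44.9% and 35.6% of all genes), 7 were at least 2-fold higher and 1 at least 2-fold lower (5.71% and 8.51% of all genes), and the median was 0.39 against 0.068 over all genes. Of the 60 genes called without the correction 43 were called in the same direction with it and 11 in the opposite direction. The canonical transcript can be longer than the one a cell makes, and a corrected value rests on it. This may hold for EIF3F with 6920 bases, and for EIF3H and EIF3M. These genes are among the 7 that were at least 2-fold higher after the correction. So are EIF5AL1 (1.93 corrected) and the read-through gene EEF1AKMT4-ECE2 (1.28 corrected), both of which can share reads with another gene. The others were EIF2B2 (1.33 corrected) and EIF2S1 (1.06 corrected).

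**Figure D1:**
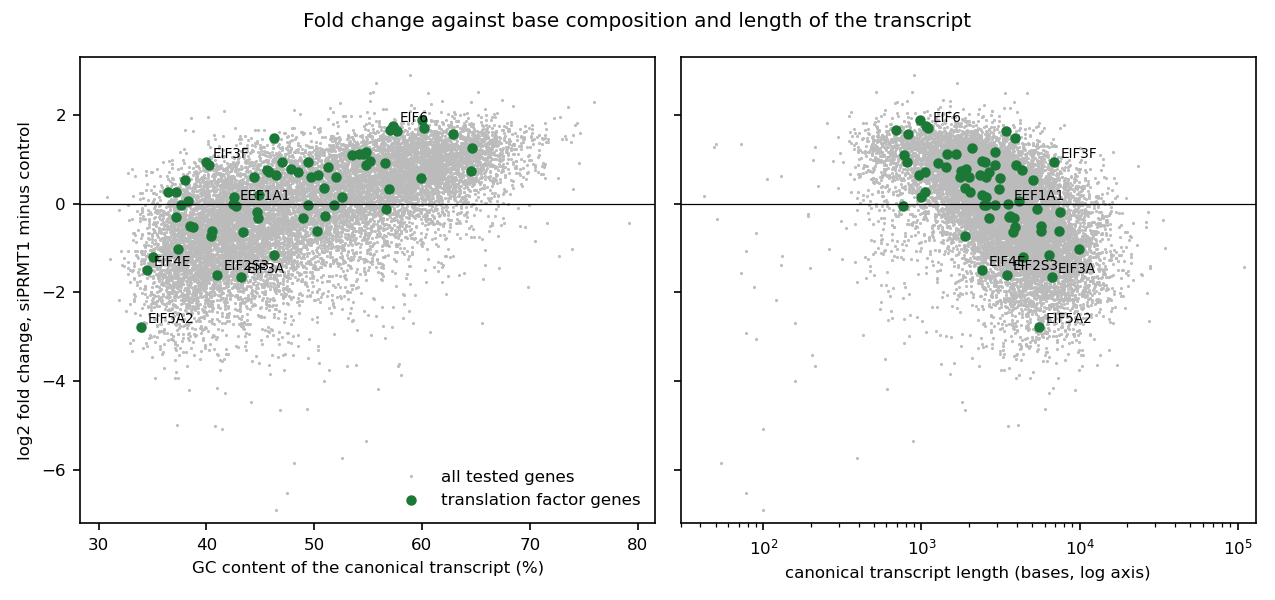
Log2 fold change (siPRMT1 minus control) of every tested gene (grey) and of the 64 tested translation factor genes (green) against GC content in percent (left) and length in bases on a log axis (right) of the canonical transcript. EIF5A2, at -2.78, lies among GC-poor and long transcripts, and EIF6, at 1.75, among GC-rich and short ones.

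**Figure D2:**
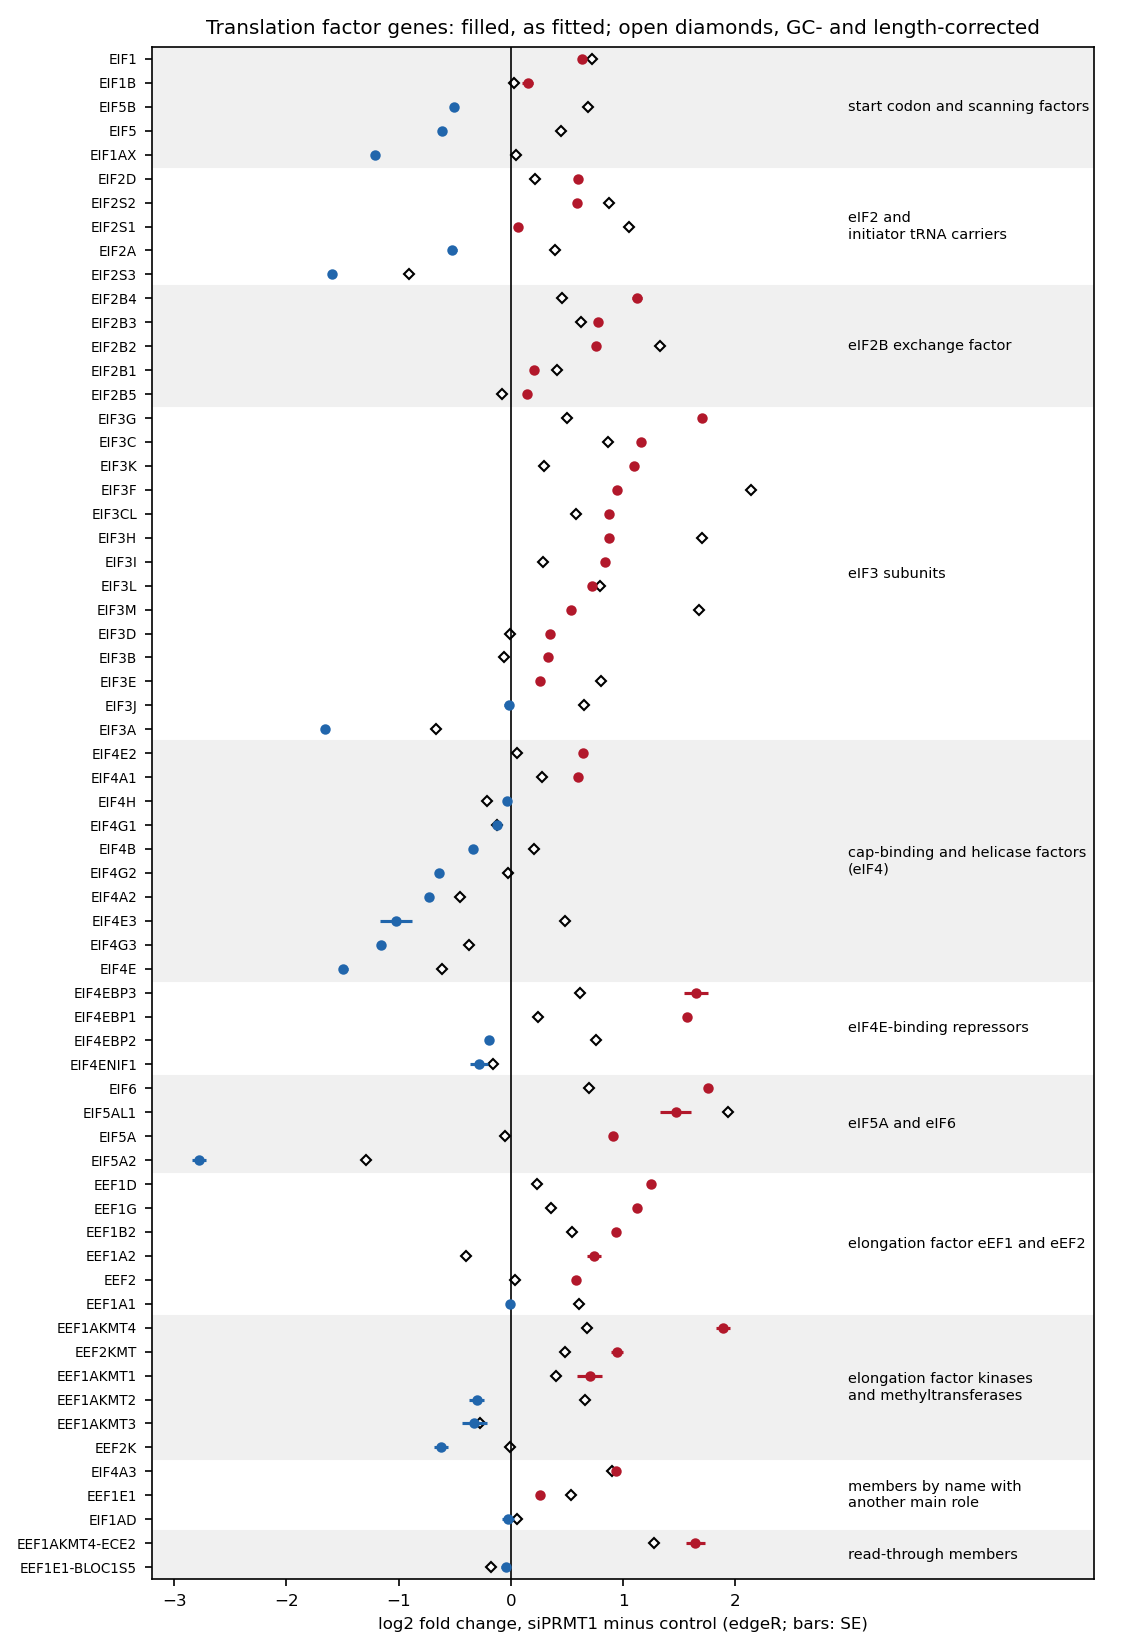
Log2 fold change of each tested translation factor gene, grouped by role. Filled points with SE bars are the fitted values (red higher, blue lower in siPRMT1), and open diamonds the values corrected for GC content and length. EIF3A at -1.65 stands apart from the other eIF3 subunits, which run from -0.021 to 1.70.

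Among the factors of scanning and start codon recognition the mRNAs of eIF1 rose and those of eIF1A, eIF5 and eIF5B fell, although after the correction for GC content and length the latter 3 lay above 0. EIF1, whose product keeps the scanning complex from settling on a wrong codon, had 437, 438 and 433 CPM in the control libraries and 675, 676 and 679 CPM in the siPRMT1 libraries. It rose by a log2 fold change of 0.63 (SE 0.0172; 0.73 corrected), and its near copy EIF1B, at 34.2, 31.6 and 32.7 against 35.4, 37.3 and 36.5 CPM, rose by 0.15 (0.026 corrected, not past the threshold; -0.17 with scaling by library size alone). EIF1AX, the X-linked gene of eIF1A, had 174, 174 and 169.7 CPM in the control libraries and 71.6, 77.2 and 75.2 CPM in the siPRMT1 libraries, a fall of 2.31-fold (log2 fold change -1.21, SE 0.0286). After the correction EIF1AX was at 0.044 and did not pass. EIF5, the GTPase-activating protein of eIF2, had 249, 247 and 244 CPM in the control libraries and 161, 159.7 and 162 CPM in the siPRMT1 libraries (-0.61, but 0.44 corrected). EIF5B, the GTPase that joins the subunits, had 132, 131 and 132 against 90.8, 97.7 and 89.3 CPM (-0.50, but 0.69 corrected). In each of these genes every siPRMT1 library lay on 1 side of every control library.

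The subunits of eIF2, which the protein complex holds in equal number, moved apart. EIF2S3, the X-linked gene of the gamma subunit that binds GTP and tRNA (ENSG00000130741; hg38, chromosome X, 24054946 to 24077408, plus strand), had 206, 210.0 and 208 CPM in the control libraries and 67.2, 69.9 and 68.8 CPM in the siPRMT1 libraries. The siPRMT1 libraries were all below the controls, by 3.03-fold (log2 fold change -1.60, SE 0.0281, adjusted p = 6.09e-227 by edgeR; -0.91 corrected). EIF2S2, the beta subunit, went the other way with 263, 249 and 248 CPM in the control libraries and 380.4, 385 and 379 CPM in the siPRMT1 libraries (0.59, 0.87 corrected). EIF2S1, the alpha subunit that stress kinases phosphorylate, had 186, 188 and 184 against 191, 199 and 194 CPM. Its small rise of 0.066 became 1.06 with the correction and turned to -0.25 with scaling by library size alone, and it did not pass in DESeq2 (adjusted p = 0.0607), with upper-quartile scaling (adjusted p = 0.42 by edgeR) or without siPRMT1 replicate 2 (adjusted p = 0.0638 by edgeR). Of the alternative carriers of initiator tRNA, EIF2D rose (48.4, 51.5 and 56.2 against 80.5, 78.5 and 77.1 CPM; 0.60, 0.21 corrected) and EIF2A fell (68.2, 68.6 and 66.8 against 48.5, 47.0 and 46.3 CPM; -0.52, but 0.39 corrected).

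All 5 subunits of eIF2B, the exchange factor that reloads eIF2 with GTP, rose (2 of them not with scaling by library size alone and 1 not after the correction), with log2 fold changes between 0.15 and 1.12 and a median of 0.76 (0.45 corrected). EIF2B4, the delta subunit, had 29.0, 28.5 and 27.4 CPM in the control libraries and 61.3, 61.5 and 62.4 CPM in the siPRMT1 libraries (1.12, 0.45 corrected). EIF2B3, the gamma subunit (41.8, 44.4 and 40.4 against 73.6, 71.7 and 71.4 CPM), and EIF2B2, the beta subunit, rose by 0.78 and 0.76 (0.62 and 1.33 corrected). The smallest changes were those of the alpha subunit gene EIF2B1 (61.5, 60.9 and 58.4 against 69.0, 70.2 and 68.7 CPM; 0.20, 0.41 corrected) and of EIF2B5, the catalytic epsilon subunit (65.4, 66.3 and 68.3 against 74.8, 74.3 and 71.9 CPM; 0.15, but -0.080 corrected). With scaling by library size alone both were lower, at -0.11 and -0.17.

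For eIF3, the largest initiation factor, 12 of 14 genes rose, EIF3A fell and EIF3J did not pass (EIF3B and EIF3D lay below 0 after the correction, EIF3E with scaling by library size alone), with a median of 0.78 (0.62 corrected). EIF3A, the gene of the largest subunit (ENSG00000107581; hg38, chromosome 10, 119033670 to 119080817, minus strand), had 349, 333 and 332 CPM in the control libraries and 102, 111 and 109 CPM in the siPRMT1 libraries, a 3.15-fold fall without overlap (log2 fold change -1.65, SE 0.0231, adjusted p = 6.27e-273 by edgeR; -0.67 corrected). EIF3G, an RNA-binding subunit that helps scanning (ENSG00000130811; hg38, chromosome 19, 10115014 to 10119899, minus strand), had 103, 107 and 101 CPM in the control libraries and 333, 338 and 337 CPM in the siPRMT1 libraries, a rise of 3.25-fold (1.70, SE 0.0229; 0.50 corrected). EIF3G, EIF3I (0.83, 0.28 corrected) and EIF3B (263, 279 and 272 against 343, 342 and 340.0 CPM) form a module of the complex with EIF3A. EIF3B rose by 0.33, but was at -0.059 after the correction, and with scaling by library size alone its 0.016 did not pass.

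The rises of the other subunits of the PCI and MPN core, to which EIF3A also belongs, differed in size. EIF3K rose by 1.10 (123, 124 and 120.1 against 259.8, 269 and 257 CPM; 0.29 corrected), EIF3F by 0.94, EIF3H by 0.88, EIF3L by 0.72, EIF3M by 0.54 and EIF3E by 0.26. Their corrected values were 2.14 for EIF3F, 1.71 for EIF3H, 0.79 for EIF3L, 1.68 for EIF3M and 0.80 for EIF3E, while with scaling by library size alone EIF3E was at -0.055. Those of EIF3F, EIF3H and EIF3M rest on canonical transcripts that may be longer than the expressed ones. The cap-binding subunit gene EIF3D rose by 0.35, with -0.011 after the correction and 0.029 with scaling by library size alone, neither past the threshold. EIF3J, whose product is loosely attached, had 62.3, 59.7 and 56.5 CPM in the control libraries and 59.2, 57.4 and 59.5 CPM in the siPRMT1 libraries, and these overlapped (-0.021, adjusted p = 0.593 by edgeR; 0.65 corrected and -0.34 with scaling by library size alone, both past the threshold). EIF3C and EIF3CL are nearly identical genes on chromosome 16, so their separate rises of 1.16 and 0.88 are uncertain. EIF3C had 41.8, 43.7 and 43.0 against 93.4, 96.1 and 96.2 CPM. Summed, EIF3C and EIF3CL went from 245 ± 4.48 to 467 ± 4.53 CPM (SD, n = 3 each), 1.90-fold higher.

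The eIF4 genes, which encode cap-binding proteins, scaffolds, helicases and helicase cofactors, showed the opposite balance. Of 10 tested 8 were lower and 2 higher, with a median of -0.49 (-0.075 corrected). The 8 include EIF4H, which overlapped between groups, and EIF4B and EIF4E3, which lay above 0 after the correction. After it 6 were lower and 3 higher. The cap-binding genes themselves did not all fall. EIF4E, the cap-binding protein gene (ENSG00000151247; hg38, chromosome 4, 98879276 to 98929125, minus strand), had 92.1, 87.7 and 92.3 CPM in the control libraries and 32.6, 31.9 and 32.3 CPM in the siPRMT1 libraries. It fell 2.81-fold without overlap (log2 fold change -1.49, SE 0.0395, adjusted p = 1.10e-151 by edgeR; -0.62 corrected). Its relative EIF4E2, a cap-binding protein that acts in repression, had 71.8, 69.7 and 72.0 against 111, 113 and 110.2 CPM and rose by 0.65, with 0.053 after the correction, which did not pass. EIF4E3, another cap-binding paralog, was low, at 4.11, 5.45 and 5.98 CPM in the control libraries and 2.92, 2.66 and 1.97 CPM in the siPRMT1 libraries (-1.02, but 0.48 corrected).

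The scaffold genes fell to different degrees. EIF4G3 had 112, 106 and 113 CPM in the control libraries and 50.4, 49.1 and 49.1 CPM in the siPRMT1 libraries, a 2.23-fold fall (-1.16, -0.37 corrected). EIF4G2, a shortened relative that lacks the eIF4E-binding part, had 758, 762 and 771 against 486, 487 and 497 CPM (-0.64, -0.029 corrected). EIF4G1, the most used scaffold, had 581, 586 and 590.3 against 540.4, 541 and 536 CPM, a small fall (-0.12, -0.12 corrected). The helicase genes parted: EIF4A1 rose (867, 881 and 899.9 against 1340.0, 1336 and 1328 CPM; 0.60, 0.27 corrected) and EIF4A2 fell (317, 314 and 307 against 189.7, 188 and 188 CPM; -0.73, -0.45 corrected). Of the helicase cofactors, EIF4B fell by 0.33 on the log2 scale (0.21 corrected). EIF4H, at -0.033 (adjusted p = 0.0244 by edgeR), overlapped between groups and did not pass with RLE size factors, DESeq2, limma-voom or the replicate block, nor without control replicate 1 or 3 or siPRMT1 replicate 2 or 3 (adjusted p from 0.12 to 0.334 by edgeR).

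The genes of the proteins that sequester eIF4E moved in both directions, 2 up and 2 down (after the correction 3 higher and 0 lower). EIF4EBP1, the best known of them (ENSG00000187840; hg38, chromosome 8, 38030534 to 38060365, plus strand), had 36.7, 37.4 and 39.2 CPM in the control libraries and 114, 113 and 110.3 CPM in the siPRMT1 libraries, a 2.98-fold rise (log2 fold change 1.57, SE 0.0356; 0.24 corrected). EIF4EBP3 had 3.42, 3.55 and 3.20 CPM in the control libraries and 11.5, 10.3 and 10.1 CPM in the siPRMT1 libraries (1.65, 0.62 corrected), and it can share reads with a read-through transcript of its upstream neighbour. EIF4EBP2 had 119, 117 and 117 against 103, 103 and 103 CPM, a small fall (-0.19, but 0.76 corrected). EIF4ENIF1, which carries eIF4E into the nucleus, had 12.0, 11.8 and 13.7 against 10.5, 10.3 and 9.92 CPM (-0.28, and -0.16 corrected, not past the threshold). The transcripts of EIF4EBP1 and EIF4EBP3 are 827 and 693 bases long, and those of EIF4EBP2 and EIF4ENIF1 are 7491 and 3647 bases.

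The pair of eIF5A genes gave the widest separation in the family. EIF5A2, the tissue-restricted paralog that is often amplified in cancers (ENSG00000163577; hg38, chromosome 3, 170888418 to 170908637, minus strand), had 52.5, 51.3 and 53.1 CPM in the control libraries and 7.75, 7.89 and 7.16 CPM in the siPRMT1 libraries. All siPRMT1 values lay below all controls, at a 6.86-fold lower level (log2 fold change -2.78, SE 0.0630, adjusted p = 1.75e-178 by edgeR), and the corrected value was -1.29, the only at least 2-fold fall among the 64 genes after the correction. EIF5A, the widely expressed form, had 513, 509 and 516 CPM in the control libraries and 965, 966 and 957 CPM in the siPRMT1 libraries, a rise of 0.91 that was -0.054 after the correction. EIF6, which keeps free large ribosomal subunits from joining small ones (ENSG00000242372; hg38, chromosome 20, 35278907 to 35284985, minus strand), had 252, 249.9 and 262 CPM in the control libraries and 866, 849.9 and 860.1 CPM in the siPRMT1 libraries. It rose 3.37-fold (1.75, SE 0.0181; 0.70 corrected), also without overlap. EIF5AL1 is an intronless copy of EIF5A at a low level (2.46, 1.85 and 2.40 against 6.20, 6.47 and 5.98 CPM; 1.47), and reads of EIF5A may have been assigned to it, which makes its value uncertain.

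**Figure D3:**
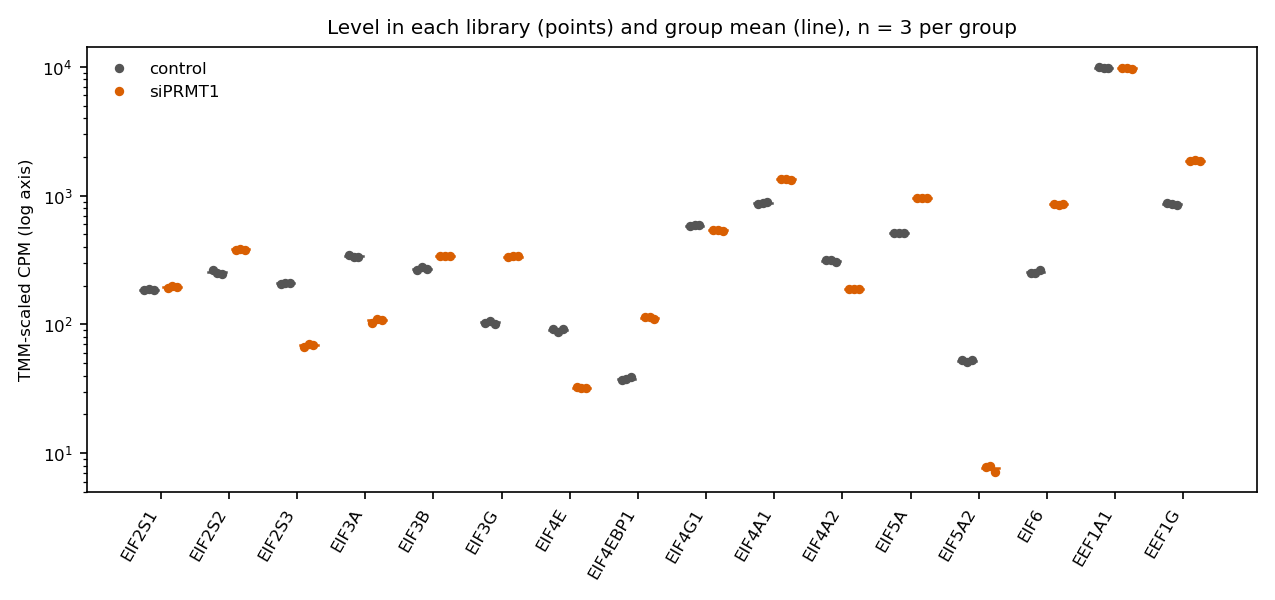
TMM-scaled CPM on a log axis of 16 translation factor genes in each library (points; grey control, orange siPRMT1), with the mean of each group as a line. EIF5A2 drops from 52.3 to 7.60 CPM, while EEF1A1 lies near 9753 CPM with overlapping groups.

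In elongation, EEF1A1 did not pass the test, while the genes of its exchange factor and of eEF2 rose. EEF1A1, the GTPase that delivers aminoacyl-tRNA and the most abundant mRNA of the family (ENSG00000156508; hg38, chromosome 6, 73489308 to 73525587, minus strand), had 9936, 9753 and 9761 CPM in the control libraries and 9753, 9830.5 and 9675 CPM in the siPRMT1 libraries. The groups overlapped, and the difference of -0.0094 on the log2 scale did not pass (adjusted p = 0.540 by edgeR, SE 0.0146). It did pass at -0.33 when only library size was scaled, at -0.057 with upper-quartile scaling, at 0.61 after the correction and at -0.013 without control replicate 3, and EEF1A1 has many processed pseudogenes that can take or lend reads. The exchange factor subunits rose: EEF1D had 237, 232 and 231 CPM in the control libraries and 555, 556 and 556 CPM in the siPRMT1 libraries (1.25, 0.23 corrected), EEF1G 873, 855 and 852 against 1866, 1874 and 1873 CPM (1.12, 0.36 corrected) and EEF1B2 a rise of 0.93 (0.54 corrected). EEF2, the translocase, had 733, 752 and 777 CPM in the control libraries and 1106, 1138 and 1132 CPM in the siPRMT1 libraries (0.58; 0.032 corrected). EEF1A2, the paralog typical of muscle and neurons, was low and rose, with 13.8, 13.5 and 14.7 against 24.4, 22.7 and 23.2 CPM (0.74, but -0.40 corrected).

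Enzymes that act on the elongation factors moved in both directions, 3 up and 3 down (after the correction 4 higher and 1 lower). EEF2K, the kinase that inactivates eEF2, fell (27.6, 24.5 and 26.7 against 17.1, 17.8 and 16.2 CPM; -0.62), but was at -0.012 after the correction and did not pass. The gene of the eEF2 lysine methyltransferase, EEF2KMT, rose (21.3, 18.9 and 18.3 against 39.1, 34.9 and 39.5 CPM; 0.95, 0.48 corrected). Among methyltransferases of eEF1A, EEF1AKMT4 rose most, 9.54, 9.25 and 11.4 against 38.9, 38.6 and 34.3 CPM (1.89, 0.67 corrected), and EEF1AKMT1 rose by 0.70 (0.40 corrected). EEF1AKMT2 fell (-0.31, but 0.66 corrected), and so did EEF1AKMT3 (6.76, 6.45 and 7.20 against 6.20, 5.49 and 4.53 CPM; -0.33), which did not pass in DESeq2 (adjusted p = 0.0592) or without siPRMT1 replicate 3 (adjusted p = 0.0808 by edgeR). EEF1AKMT4 overlaps the read-through gene EEF1AKMT4-ECE2 (5.80, 5.50 and 6.02 against 19.9, 17.9 and 16.4 CPM; 1.64) on the same strand, so reads cannot be told apart over their common part. The same holds for EEF1E1 (60.8, 65.7 and 60.8 against 70.9, 77.8 and 74.4 CPM; 0.26; -0.061 with scaling by library size alone) and EEF1E1-BLOC1S5 (45.6, 49.4 and 44.7 against 42.8, 47.1 and 44.9 CPM; -0.046, adjusted p = 0.292 by edgeR). EEF1E1-BLOC1S5 did pass at -0.36 with scaling by library size alone, at -0.094 with upper-quartile scaling and at -0.18 after the correction. EIF4A3 rose (109, 108 and 105 against 205, 208 and 201 CPM; 0.93, 0.91 corrected), and EIF1AD, which carries an eIF1A-like fold, did not pass (31.9, 30.4 and 33.5 against 32.3, 30.8 and 31.1 CPM; -0.026, adjusted p = 0.620 by edgeR), except at -0.34 with scaling by library size alone.

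Ratios of counts within a library do not depend on the scaling between libraries, and 12 pairs of paralogs or partners were compared that way. In all 12 the control and siPRMT1 ratios did not overlap, which gave the smallest p that an exact two-sided permutation test of 3 against 3 allows, 0.10 (0.10 after Benjamini-Hochberg adjustment over the 12 pairs), so none could reach 0.05. The EIF5A to EIF5A2 ratio was 9.77, 9.91 and 9.71 in the controls against 124, 122 and 133 with siPRMT1, 12.9-fold higher. EIF4E counts over those of its repressor gene EIF4EBP1 were 2.50, 2.34 and 2.35 in the controls against 0.287, 0.282 and 0.293 with siPRMT1, 8.35-fold lower. In the control libraries EIF4E thus had more reads than EIF4EBP1, and in the siPRMT1 libraries fewer. These read counts were not divided by transcript length, so their order here and below is not one of levels between genes.

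Other pairs differed less. The EIF4E to EIF4E2 ratio was 1.28, 1.26 and 1.28 in the controls against 0.295, 0.281 and 0.294 with siPRMT1. For EIF3B to EIF3A it was 0.755, 0.838 and 0.817 in the controls against 3.34, 3.08 and 3.12 with siPRMT1, so the order of these read counts was the opposite. The order was also opposite for EIF4EBP1 and EIF4EBP2, 0.310, 0.320 and 0.335 in the controls against 1.10, 1.10 and 1.07 with siPRMT1, and for EIF4G1 and EIF4G2, 0.767, 0.770 and 0.765 in the controls against 1.11, 1.11 and 1.08 with siPRMT1. The EIF4A1 to EIF4A2 ratio was 2.51-fold higher, EEF2 to EEF2K 2.30-fold, EIF4G1 to EIF4G3 2.05-fold and EIF1 to EIF1B 1.40-fold higher. EEF1A1 to EEF1A2 was 1.68-fold lower, and EIF5 to EIF5B, which both fell, differed least (-0.10 on the log2 scale). These ratios carry the GC and length trend of their genes and were not refitted with the correction. By the corrected values of single genes the direction was the opposite for EIF4EBP1 (0.24) to EIF4EBP2 (0.76) and EIF4G1 (-0.12) to EIF4G2 (-0.029). The same held for EEF1A1 (0.61) to EEF1A2 (-0.40). All other pairs kept their direction by these values. For EEF2 (0.032) to EEF2K (-0.012, not past the threshold) little difference was left.

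**Figure D4:**
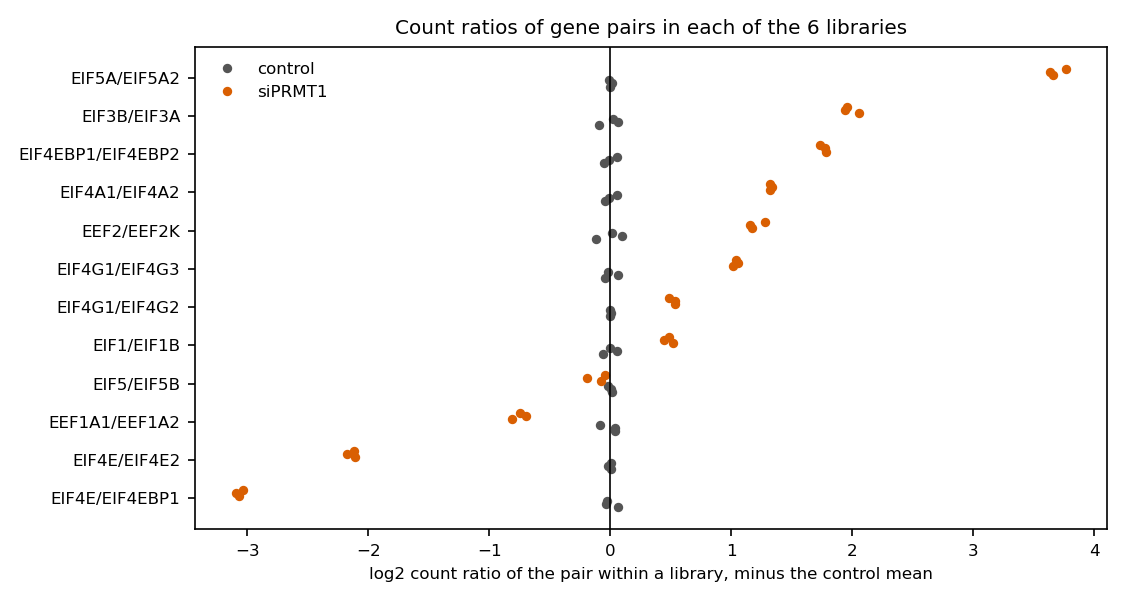
Log2 count ratio of 12 gene pairs in each of the 6 libraries, set to the mean of the control libraries at 0 (grey control, orange siPRMT1). The siPRMT1 points run from -3.06 for EIF4E/EIF4EBP1 to 3.69 for EIF5A/EIF5A2 in mean, and lie close to the controls only for EIF5/EIF5B.

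Levels were compared between genes as CPM per kilobase of canonical transcript. That transcript can be longer than the one expressed, so the order of genes rests on the annotated lengths. EEF1A1 was highest in both groups, going from 2795 ± 29.4 to 2777 ± 22.2 (SD, n = 3 each). EEF1G came next, from 595 ± 7.90 to 1294 ± 3.08, followed in the control libraries by EIF4A1, from 502 ± 9.36 to 759 ± 3.58, and EIF5A, from 406 ± 3.00 to 761 ± 3.51. EIF6 rose from 238 ± 6.25 to 803 ± 7.41 and so lay above both in the siPRMT1 libraries, where EIF5A and EIF4A1 did not differ beyond their spread. Of the 64 tested genes EIF4E3 was lowest in both groups, going from 0.519 ± 0.0965 to 0.252 ± 0.0491 CPM per kilobase. EIF4E went from 37.4 ± 1.06 to 13.3 ± 0.158, and EIF5A2 from 9.45 ± 0.166 to 1.37 ± 0.0698, which was next to lowest in the siPRMT1 libraries.

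Several genes of this family belong to the TOP mRNAs, which start with a C and a run of pyrimidines and whose translation is set by mTORC1 through LARP1. RefSeq promoter windows of 300 bases (GRCh38.p14) were found for 54 of the 67 genes. Such a start, read here as a C at an annotated start followed by at least 4 pyrimidines on the sense strand, was present for 13 of the 54 (24.1%) against 5.14% of all 27305 gene symbols with a window. The sequences below show it for 8 genes that share the start and yet moved in different directions, as 15 bases before the start site and 15 from it on, with the pyrimidine run in capitals.
EEF1A1 (chr6:73521018-73521047, minus strand): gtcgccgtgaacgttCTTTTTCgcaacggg
EEF2 (chr19:3985449-3985478, minus strand): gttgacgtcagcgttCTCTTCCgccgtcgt
EIF3F (chr11:7987322-7987351, plus strand): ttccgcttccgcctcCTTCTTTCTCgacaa
EIF3K (chr19:38619173-38619202, plus strand): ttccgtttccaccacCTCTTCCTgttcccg
EIF3M (chr11:32583816-32583845, plus strand): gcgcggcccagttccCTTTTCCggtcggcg
EIF2S3 (chrX:24054941-24054970, plus strand): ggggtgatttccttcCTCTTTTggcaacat
EIF4A2 (chr3:186783562-186783591, plus strand): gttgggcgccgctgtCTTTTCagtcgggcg
EIF4B (chr12:53006441-53006470, plus strand): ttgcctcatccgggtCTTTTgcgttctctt

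EIF3K (1.10), EIF3F (0.94), EEF2 (0.58) and EIF3M (0.54) rose, EEF1A1 (-0.0094) did not pass, and EIF4B (-0.33, but 0.21 corrected), EIF4A2 (-0.73) and EIF2S3 (-1.60) fell. Over the 12 tested genes with such a start 7 rose and 4 fell, with a median log2 fold change of 0.44 (0.25 corrected). The 39 without it had a median of 0.15 (0.41 corrected), 22 rising and 14 falling. All 44 tested genes with such a start and a symbol opening with RPL or RPS and a digit rose, from 0.73 to 1.81 (median 1.33, 1.01 corrected). That symbol rule fits ribosomal protein genes, but it can also fit others, such as the S6 kinase gene RPS6KB2. Of all 779 tested genes with such a start 393 rose and 314 fell (50.4% and 40.3%, median 0.15, 0.16 corrected). Of the 9984 without it 43.2% rose and 46.4% fell (median -0.0485, 0.065 corrected). Of the 723 with such a start that are in neither that symbol set nor this family, 342 rose and 310 fell (47.3% and 42.9%, median 0.043, 0.12 corrected). The 10 genes that are classically listed as TOP mRNAs, a list that includes EIF3A, EIF4B, EEF1A1 and EEF2, gave 7 rising and 2 falling, with a median of 0.73 (0.45 corrected). The other 54 tested genes gave 33 rising and 18 falling, with a median of 0.34 (0.39 corrected). A match of letters at an annotated start is a description and not a measured start site.

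Genes around these factors were read from lists of pathway partners. LARP1, the protein that binds TOP mRNAs, fell from 271 ± 1.51 to 83.7 ± 2.26 CPM (SD, n = 3 each; log2 fold change -1.69, -1.35 corrected). Of 14 genes of mTORC1 and of the kinases that act on eIF4, 7 rose and 7 fell, with a median of 0.062 (0.21 corrected). The ribosomal S6 kinase gene RPS6KB2 (1.34, 0.25 corrected), the mTORC1 subunit gene MLST8 (1.34, 0.21 corrected) and AKT1S1 (0.95, but -0.18 corrected), an inhibitor of the complex, rose. Of 8 genes of the eIF2 kinases, their GCN partners and the phosphatase regulators, 2 rose and 6 fell, with a median of -0.83 (-0.12 corrected). EIF2AK2, the kinase PKR, fell (108, 109 and 105 against 48.6, 51.6 and 50.5 CPM; -1.10, but 0.33 corrected), as did EIF2AK4, the kinase GCN2 (-0.78, -0.16 corrected), and PPP1R15B, which keeps eIF2 dephosphorylated at rest (-1.04, -0.21 corrected). Its stress-induced relative PPP1R15A rose (0.48, but -0.24 corrected).

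Among 10 poly(A)-binding, scanning and recycling partners 4 rose and 6 fell, with a median of -0.30 (0.058 corrected). The helicase gene DDX3X fell from 482 ± 7.48 to 129 ± 4.07 CPM (SD, n = 3 each; -1.90, -0.98 corrected), and the ribosome recycling factor gene ABCE1 (-1.41, -0.27 corrected) and the scanning helicase gene DHX29 (-1.01, -0.070 corrected, not past the threshold) fell too. PAIP2, an inhibitor of the poly(A)-binding protein, rose (0.84, 1.05 corrected). Of 5 genes of termination and ribosome rescue 4 fell and 1 rose, with a median of -0.54, while after the correction 3 were higher and 1 lower, with a median of 0.13. Those that fell include HBS1L (-1.39; -0.037 corrected, not past the threshold) and the release factor genes ETF1 (-0.54, but 0.13 corrected) and GSPT2 (-0.89, -0.57 corrected). GSPT1, the main partner of ETF1, rose by 0.086 (1.23 corrected), but was lower, at -0.23, with scaling by library size alone and did not pass at 0.039 with upper-quartile scaling (adjusted p = 0.136 by edgeR). Of 9 enzymes that make hypusine on eIF5A or diphthamide on eEF2, 7 rose and 1 fell, with a median of 0.64 (0.48 corrected). They include DOHH (1.33, 0.13 corrected) and DHPS (1.00; -0.0026 corrected, so of the opposite sign), the hypusine enzymes, and DPH1 (1.34, 0.79 corrected) and DPH2 (1.17, 0.59 corrected) of diphthamide synthesis.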

How the data were processed

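RNA was read as stranded mRNA libraries in pairs of 150 bases, per the labels. Per the submitters' processing notes, the genome build was hg38, and edgeR 3.40.2, Subread 1.5.1, featureCounts, STAR 2.7.6a and fastp 0.23.2 are listed without roles. The sources used here name no annotation release or strand setting. The deposited table holds raw counts, whole numbers of reads for each gene. These counts were filtered with filterByExpr (13710 genes kept), scaled by TMM and tested in R 4.3.3 with edgeR 4.0.16 (glmQLFit, glmQLFTest, Benjamini-Hochberg adjustment over all tested genes, threshold 0.05). The fit was tested on simulated data. The common dispersion was 9.77e-05. Replicates of a group differed by more than sampling noise (chi-square over degrees of freedom 1.05 to 1.38).

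The members, lists and tests were chosen with earlier results of these data known. Values per library are given at least for PRMT1, for the 2 highest and 2 lowest fold changes of each role list and for the genes of pairs, and for some others chosen after their values were seen (such as EIF2S1, EIF2AK2, TUFM and GFM1); each pathway list is represented by at most 4 genes, those of lowest adjusted p. Pair ratios used counts plus 0.5. Canonical transcripts came from GENCODE 44, which holds 20472 of the 20532 identifiers. The corrected fit removed splines with 5 degrees of freedom on GC content and log length per library. Alternatives were RLE, upper-quartile and library-size scaling, DESeq2 1.42.0, limma-voom 3.58.1, other filters, the replicate block and leaving out each library.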

Additional observations from a re-analysis of the deposited data

How the results depend on the processing

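The counts of changed translation factor genes in each direction kept within 1.5 times of the reported ones under every alternative, except at least 2-fold changes. These came to 7 higher with scaling by library size alone (over all genes 901). With the GC and length correction they came to 7 higher and 1 lower (782 and 1166 over all genes; 784 and 1168 with the replicate block added, and 7 and 1 of the family). The family's median was 0.45 with RLE size factors, 0.39 with upper-quartile scaling, 0.12 with library size alone, 0.34 with DESeq2, 0.33 without a filter, 0.394 corrected, 0.393 corrected with the block, and 0.437 to 0.451 with 1 library left out. The median over all genes shifted by -0.317 with library size alone. The replicate block left 40 genes higher and 19 lower, and EIF4H lost its call (adjusted p = 0.0784). Same-numbered libraries had correlations of their deviations between -0.010 and 0.037, the highest for replicate 2, and differently numbered libraries between -0.034 and 0.031. Values this near 0 do not show whether the numbers are pairs, and they were not taken as pairs.

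Signs turned with library size alone for EIF3E -0.055, EIF2S1 -0.25, EIF2B5 -0.17, EEF1E1 -0.061, EIF2B1 -0.11, EIF1B -0.17 and GSPT1 -0.23. They turned after the correction for EEF1AKMT2 0.66, EIF4EBP2 0.76, EIF1AX 0.044, EIF5 0.44, EEF1A1 0.61, EIF2A 0.39, EIF4B 0.21, EEF1A2 -0.40, EIF3J 0.65, EIF4E3 0.48, EIF5B 0.69, EIF2B5 -0.080, EIF3B -0.059, EIF5A -0.054, EIF3D -0.011, EIF1AD 0.053, EIF2AK2 0.33, PPP1R15A -0.24, DHPS -0.0026, AKT1S1 -0.18 and ETF1 0.13. With the block added to it the values that differ were EIF1AX 0.042, EIF4E3 0.47, EIF3B -0.060, EIF3D -0.0088, EIF1AD 0.057 and DHPS -0.0054. The median of the eIF2 carriers was -0.25 with library size alone, -0.23 with DESeq2 and -0.24 without a filter, where EIF2S3B enters. That of the elongation factor enzymes was -0.12 and that of the genes with another role -0.061 with library size alone, and that of the scanning factors 0.44 after the correction, with or without the block (0.445). With 1 library left out, EIF3J ran from -0.057 to 0.014 and EIF1AD from -0.061 to 0.010, both without a call; calls lost or gained by leaving out a library are given in the report for EIF4H, EIF2S1, EEF1AKMT3 and EEF1A1. Every pair ratio kept its sign with 1 added to each count and with each library left out, and none was refitted with the GC and length correction. The cause was not tested for any of these, apart from the lists that gained a gene.

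Low counts limit EIF4E3, EIF4EBP3, EIF5AL1, EEF1AKMT1 and EEF1AKMT3, each under 12 CPM in both groups.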

Other observations

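The translation factors of mitochondria, which serve the mRNAs of the mitochondrial genome, moved in both directions. Of 10 genes, 6 rose and 4 fell, with a median log2 fold change of 0.27 (0.30 corrected for GC content and length). After that correction 7 were higher and 1 lower. TUFM, the mitochondrial counterpart of eEF1A, had 129, 129 and 137 CPM in the control libraries and 279.9, 283 and 277 CPM in the siPRMT1 libraries (1.09, 0.34 corrected). GFM1, the mitochondrial counterpart of eEF2, fell, with 57.1, 59.8 and 59.9 CPM in the control libraries and 18.5, 18.7 and 17.3 CPM in the siPRMT1 libraries (-1.69, -0.51 corrected). The initiation factor gene MTIF3 rose by 0.52 (0.46 corrected), and the recycling factor gene GFM2 fell (-0.59; -0.024 corrected, not past the threshold).

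The X-linked genes EIF1AX and EIF2S3 and their partner DDX3X, also on the X chromosome, all fell (-1.21, -1.60 and -1.90), a grouping noticed after the values were seen. Their corrected values were 0.044, -0.91 and -0.98, the first of which did not pass.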
